A study of Bos taurus with 16 samples.

Results

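HCLS1, ARHGAP25, ADA, ACP5, OAS1X and TOX are genes best known from blood and immune cells, and their levels were followed here in the prefrontal cortex (PFC) of cattle. They are 6 of the 27607 genes measured and of the 1048 genes that could be given a symbol. All 6 come from the study's own list of genes that differ between the breeds, with HCLS1 and ARHGAP25 on its lower side in the Lidia breed and the other 4 on its higher side. The genes were therefore chosen by their difference between Lidia and Wagyu, and their values in that contrast are given as a description without a test. The study asked which genes differ in the PFC between cattle selected for aggressive behaviour and docile cattle, and sequenced messenger RNA from 1 library per animal. The aggressive group comprised 8 bulls of the Lidia breed, which is bred for agonistic responses, with 4 bulls from the farm La Quinta and 4 from the farm Montealto. The non-aggressive group comprised 8 bulls of the Wagyu breed, which is bred for meat, from a single farm. All 16 animals were uncastrated males of 3 years, apart from Montealto 4, which was 4 years old. Tissue was cut from the dorsal part of the right hemisphere within 1 h of death, at the bullring for Lidia and at the slaughterhouse for Wagyu. Breed, farm, feeding, handling before death and place of sampling thus cannot be told apart, and the La Quinta and Montealto contrasts with Wagyu share the same 8 Wagyu animals.

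The brain holds its own resident immune cells, the microglia, together with macrophages at its borders and blood vessels and a few lymphocytes. Such cells move and engulf material by remodelling their actin skeleton, degrade it in acidic lysosomes, respond to adenosine released by stressed cells, and raise antiviral genes under interferon. Each of these activities is represented by at least 1 of the genes, although some of the genes, ADA and TOX among them, are also transcribed in cells that are not of the blood lineage.

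Levels are in FPKM, a count of sequenced fragments set relative to exon length and to all mapped fragments of the library. They were added up over a gene's transcripts, and each animal was then rescaled to a common middle level by median of ratios, taken over 15998 genes. A pair of libraries stood apart before rescaling. The deposited FPKM of Wagyu 4 and La Quinta 4 summed to 567732 and 439325, against 172575 to 244276 in the other 14 animals. The fragments estimated from the ratio of coverage to FPKM were fewest there, 7.67 M and 13.7 M against 20.0 M to 37.0 M (M, 10 to the power 6). A raised FPKM lowers this estimate by construction, so it is no separate measure of sequencing depth. Montealto 2 stood apart in the summed level of 6 endothelial and mural cell markers, 113 FPKM against 30.5 to 41.9 FPKM in the other 7 Lidia bulls. Of its 113 FPKM, 98.4 FPKM came from 1 gene, CLDN5. Differences between groups are given on the log2(FPKM + 0.1) scale, which understates the change of low genes, with the standard error from limma.

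HCLS1 and ARHGAP25 were lower in Lidia, 2.09-fold and 1.62-fold, while ADA, ACP5, OAS1X and TOX were higher, 2.10-fold, 1.80-fold, 3.81-fold and 1.61-fold. These folds are the differences of mean log2(FPKM + 0.1) turned back to a ratio, and are not ratios of the mean FPKM. HCLS1 separated the breeds completely, and OAS1X was high in the La Quinta bulls and divided among the Montealto bulls. All 6 genes were above 0 in every animal. Each also passed the filter on low values, a mean of at least 0.1 FPKM, which 16587 genes passed. The 6 genes were weakly expressed. Mean levels over the 16 animals were 2.08 FPKM for TOX, 2.05 for ARHGAP25, 1.62 for HCLS1, 1.42 for ADA, 1.11 for OAS1X and 0.732 for ACP5, which placed the genes between the 22.5th and the 43.4th percentile of the genes tested. The levels of neighbours in this order overlapped between animals. Of the 6 genes, 6 were called in the contrast that chose them (limma, adjusted p no higher than 0.05, log2 difference of 0.1 or more in size), where 4.98% of all genes were called. Without rescaling, 0 of the 6 and 0 of 16614 genes (0.0%) passed, with all 6 genes and 6.15% of all genes at an unadjusted p under 0.05. Nothing is read from these counts, since the contrast had chosen the genes.

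The actin regulators come first. HCLS1 (ENSBTAG00000001009) encodes the haematopoietic relative of cortactin, an actin-binding substrate of Lyn and other tyrosine kinases below antigen receptors. It lies on chromosome 1 of ARS-UCD 1.2 from 66112082 to 66145729, on the minus strand, with 14 exons in its single annotated transcript and no overlapping gene. Its level was 0.611, 0.995, 0.920 and 1.06 FPKM in La Quinta 1 to 4. In Montealto 1 to 4 it was 1.37, 0.909, 1.09 and 1.10 FPKM. The 8 Wagyu animals ranged from 1.65 to 2.98 FPKM with a median of 2.16. Every Lidia bull lay below every Wagyu bull, a separation shown in this contrast by 0.705% of all genes, and the 8 Wagyu animals themselves formed an upper set of 4 at 2.55 FPKM or more and a lower set of 4 at 1.77 FPKM or less. The mean was 1.01 ± 0.216 FPKM (SD, n = 8) in Lidia and 2.24 ± 0.581 FPKM (SD, n = 8) in Wagyu, a log2 difference of -1.06 (standard error 0.16). Without Wagyu 4 and La Quinta 4 it was -1.03.

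ARHGAP25 (ENSBTAG00000023976) encodes a GTPase-activating protein that switches off the small GTPase Rac, and it restrains engulfment by phagocytes. It spans chromosome 11 from 67091343 to 67183466 on the plus strand, with 11 exons. The level was 1.73, 1.44, 1.37 and 1.09 FPKM in La Quinta 1 to 4 and 1.62, 1.66, 1.38 and 2.02 FPKM in Montealto 1 to 4. Among Wagyu the lowest animal had 1.79, the median was 2.73 and the highest animal had 3.31 FPKM. Here 7 of 8 Lidia bulls lay below every Wagyu bull, and Montealto 4 overlapped with Wagyu 2, the lowest of its breed. Group means were 1.54 ± 0.281 FPKM (SD, n = 8) in Lidia and 2.56 ± 0.523 FPKM (SD, n = 8) in Wagyu, which gave a log2 difference of -0.69 (standard error 0.13), or -0.61 without Wagyu 4 and La Quinta 4.

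**Figure D1:**
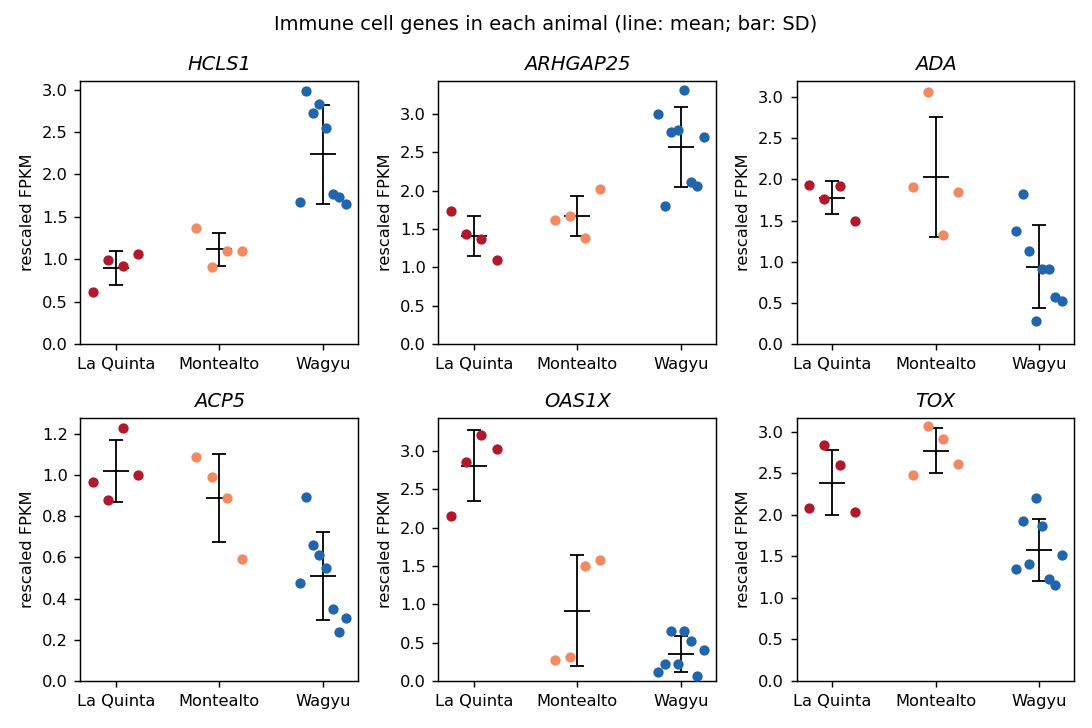
Rescaled FPKM of the 6 genes (vertical axes, linear, from 0) in each animal of La Quinta (n = 4), Montealto (n = 4) and Wagyu (n = 8); points are animals, the horizontal line is the group mean and the bar its SD. HCLS1 shows no overlap of Lidia (0.611 to 1.37) with Wagyu (1.65 to 2.98), while in OAS1X the 4 La Quinta bulls (2.15 to 3.21) stand above all others and Montealto 1 and 2 lie among the Wagyu animals.

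The enzymes of the group were on the higher side in Lidia. ADA (ENSBTAG00000005280) encodes adenosine deaminase, which turns adenosine into inosine and without which lymphocytes fail to develop. It occupies chromosome 13 from 73028616 to 73052210 on the minus strand and has 3 annotated transcripts. La Quinta 1 to 4 had 1.93, 1.76, 1.92 and 1.5 FPKM, and Montealto 1 to 4 had 1.90, 3.06, 1.32 and 1.85 FPKM. Wagyu levels ran from 0.279 to 1.83 FPKM around a median of 0.918. Of the Lidia bulls, 5 of 8 lay above every Wagyu bull, Montealto 2 being far above the rest, and Wagyu 2 was level with the Lidia bulls. Montealto 2 had a read coverage of 7.48 over ADA, against 14.1 in Montealto 1, so its higher level rests on fewer reads. The means of 1.91 ± 0.514 FPKM (SD, n = 8) in Lidia and 0.942 ± 0.500 FPKM (SD, n = 8) in Wagyu differed by 1.07 on the log2 scale (standard error 0.27). The difference was 0.97 without Montealto 2 and 0.92 without Wagyu 4, which had the lowest level, and La Quinta 4.

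Which ADA transcript carried the signal also varied. The transcript that spans the whole locus, with 12 exons, held from 81.4% to nearly all of the gene's FPKM in Lidia, with a median of 92.2%. In Wagyu it held from 53.2% to nearly all, with a median of 79.3%, so that the breeds overlapped. The lowest shares were those of Wagyu 5 and Wagyu 4, at 53.2% and 58.9%, and the remainder was assigned to a pair of transcripts that lie within the same locus and span less of it. Between the farms the mean share was 88.9% in La Quinta and 94.2% in Montealto, and the shares of single bulls spread more widely than that (two-sided exact permutation test, p = 0.4). Division of reads among transcripts of a locus is an estimate, and in Wagyu 4 the deposited confidence limits of the longest-spanning transcript ran from 0.0426 to 0.677 FPKM before rescaling.

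ACP5 (ENSBTAG00000004826) encodes the tartrate-resistant acid phosphatase of osteoclasts and activated macrophages. It is a short gene on chromosome 7, from 15911386 to 15915021 on the minus strand, with 6 exons. La Quinta 1 to 4 had 0.966, 0.877, 1.23 and 1.00 FPKM, and Montealto 1 to 4 had 1.09, 0.989, 0.890 and 0.592 FPKM. In Wagyu the lowest value was 0.237, the median 0.512 and the highest 0.892 FPKM. All Lidia bulls but Montealto 4, the oldest animal, were near 1 FPKM, and 5 of 8 lay above every Wagyu bull. The difference between 0.954 ± 0.184 FPKM (SD, n = 8) and 0.510 ± 0.215 FPKM (SD, n = 8) was 0.85 on the log2 scale (standard error 0.20), and 0.88 without Wagyu 4 and La Quinta 4. Read coverage over the gene was thin, from 1.10 to 6.90 in Wagyu and from 2.42 to 8.08 in Lidia.

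OAS1X (ENSBTAG00000053807) belongs to the oligoadenylate synthetases, interferon-induced enzymes whose product activates RNase L to cleave RNA in infected cells. It lies on chromosome 17 from 61376225 to 61385129 on the minus strand, with 5 exons. In the RefSeq annotation of ARS-UCD2.0 its neighbours are OAS1Y and OAS1Z, close relatives, so that reads may have been divided among them and the level of each is uncertain. La Quinta 1 to 4 had 2.15, 2.85, 3.21 and 3.03 FPKM. Montealto 1 to 4 had 0.270, 0.311, 1.5 and 1.58 FPKM. The Wagyu animals lay between 0.0688 and 0.651 FPKM with a median of 0.309. Thus all 4 La Quinta bulls were highest, Montealto 3 and 4 were intermediate, and Montealto 1 and 2 could not be set apart from Wagyu. Lidia averaged 1.86 ± 1.16 FPKM (SD, n = 8) and Wagyu 0.354 ± 0.232 FPKM (SD, n = 8), with a log2 difference of 1.93 (standard error 0.49), or 1.73 without Wagyu 4 and La Quinta 4. Coverage was 0.320 to 3.97 in Wagyu, so the lowest of these levels rest on very few reads. In Wagyu 7, the lowest animal, the deposited confidence limits were 0.0186 and 0.0823 FPKM before rescaling.

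TOX (ENSBTAG00000004954) encodes a nuclear protein with an HMG box that is needed for the development of T cells and is also kept up in exhausted T cells. With 311716 bases, on chromosome 14 from 24946881 to 25258596 on the minus strand, it is the longest of the 6 genes and has 9 exons. Levels were 2.08, 2.83, 2.59 and 2.03 FPKM in La Quinta 1 to 4 and 2.47, 3.07, 2.91 and 2.62 FPKM in Montealto 1 to 4. Wagyu ran from 1.15 over a median of 1.46 to 2.2 FPKM. The 4 Montealto bulls and 2 of the La Quinta bulls lay above every Wagyu bull, and Wagyu 4 was the highest of its breed. The means were 2.58 ± 0.373 FPKM (SD, n = 8) and 1.58 ± 0.376 FPKM (SD, n = 8), with a log2 difference of 0.69 (standard error 0.13) that was 0.81 without Wagyu 4 and La Quinta 4.

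Each farm was then set beside Wagyu. HCLS1 had a log2 difference of -1.21 in La Quinta and -0.91 in Montealto. For ARHGAP25 the values were -0.81 and -0.58. ADA had 1.00 and 1.13, and ACP5 0.94 and 0.75. In TOX the larger difference was that of Montealto, 0.80 against 0.58. OAS1X had 2.85 in La Quinta and 1.01 in Montealto, the latter being 0.67 without Montealto 3 and 0.65 without Montealto 4. All 6 genes thus kept 1 direction in both farms, which the choice of the genes from the pooled contrast favours and which the shared Wagyu animals link. Of the 6 genes, 3 (HCLS1, ARHGAP25 and OAS1X) showed no overlap of La Quinta with Wagyu, as did 2.84% of all genes, and 2 (HCLS1 and TOX) no overlap of Montealto with Wagyu, as did 2.74% of all genes.

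**Figure D2:**
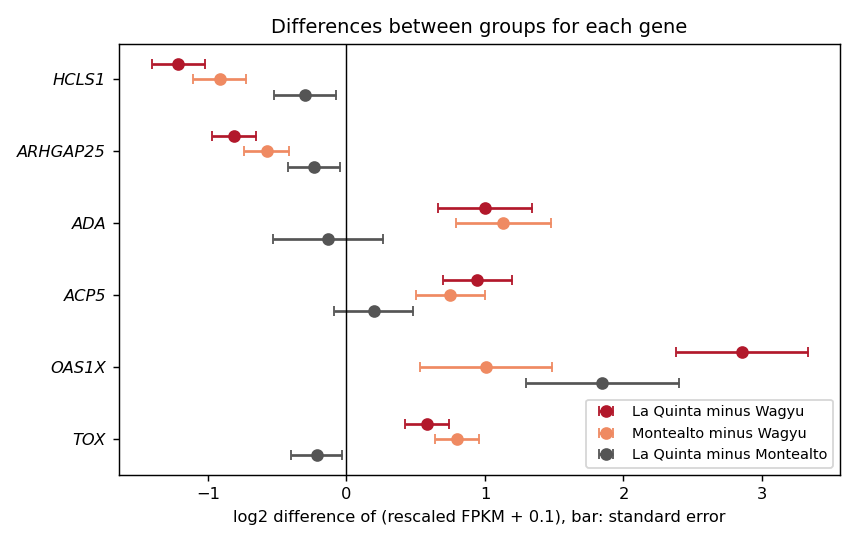
Log2 differences of rescaled FPKM + 0.1 (horizontal axis) for each gene, La Quinta (n = 4) minus Wagyu (n = 8), Montealto (n = 4) minus Wagyu and La Quinta minus Montealto; points are estimates of the limma fit with 3 groups and bars their standard errors. The differences from Wagyu have 1 sign per gene, and OAS1X is the gene with the widest gap between the farms, 1.85.

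The contrast of the farms was not the one that chose the genes, and in it 0 of 6 genes were called (limma, Benjamini-Hochberg adjustment over 16587 genes), where 0.0904% of all genes were. At an unadjusted p under 0.05 there was 1 of the 6, beside 5.88% of all genes. That gene was OAS1X, with 2.81 ± 0.465 FPKM (SD, n = 4) in La Quinta and 0.915 ± 0.722 FPKM (SD, n = 4) in Montealto. Its log2 difference was 1.85 (standard error 0.55, 95% confidence interval 0.66 to 3.04, limma adjusted p = 0.571). The farms did not overlap, with 4 of 4 La Quinta bulls above every Montealto bull, which 1.85% of all genes showed in that direction and 3.61% in either. An exact two-sided permutation test gave p = 0.0286, the smallest that 4 against 4 animals allow. The difference of OAS1X between the farms therefore did not pass the adjustment over all genes.

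For the other 5 genes the farms overlapped, and their adjusted p in limma lay between 0.843 and 0.955. HCLS1 was 0.897 ± 0.2 FPKM (SD, n = 4) in La Quinta and 1.12 ± 0.191 FPKM (SD, n = 4) in Montealto, with a log2 difference of -0.30 and an interval from -0.78 to 0.18 (exact permutation test, p = 0.171). ARHGAP25 was -0.24 with an interval from -0.64 to 0.17 (exact permutation test, p = 0.257). The interval of ADA, whose difference was -0.13, was the widest of these and ran from -0.99 to 0.72 (exact permutation test, p = 0.743). ACP5 differed by 0.20, with bounds of -0.43 and 0.82 (exact permutation test, p = 0.457). TOX differed by -0.21, with bounds of -0.61 and 0.18 (exact permutation test, p = 0.171). These intervals leave room for differences in either direction, and the data do not show that the farms are alike. On the FPKM as deposited the median over all genes moved from -0.01 to 0.32 between the farms, and 4 of these differences (HCLS1, ARHGAP25, ADA and TOX) changed sign with it while staying below that median.

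OAS1X was next set beside other interferon-induced genes. Of 25 such genes 9 have a symbol here, and between the farms 0 of the 9 were called, 3 had an unadjusted p under 0.05 (5.88% of all genes) and 7 were higher in La Quinta. Their median log2 difference was 0.36, where the median over all genes was -0.01. The 4 with the widest gaps were IFI27 (1.72), an inner membrane protein, MX1 (1.21), an antiviral GTPase, IFI47 (0.86), a GTPase, and OAS1Y (0.82). IFI27 was 10.2 ± 2.63 FPKM (SD, n = 4) in La Quinta and 3.22 ± 1.60 FPKM (SD, n = 4) in Montealto (limma adjusted p = 0.543), and its farms did not overlap. The summed level of the 9 genes was 26.3 to 39.7 FPKM in La Quinta, 13.4 to 31.3 FPKM in Montealto and 9.49 to 26.4 FPKM in Wagyu. As the 9 genes are also on the study's list, their direction between the breeds is fixed in part by that choice.

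Animals with high interferon-induced levels were not always those with high OAS1X. Montealto 1, singled out after its values were seen, had 5.13 FPKM of OAS1Y and 5.57 FPKM of MX1, within the La Quinta ranges of 3.26 to 5.69 and 4.40 to 7.09. Its OAS1X was 0.270 FPKM, below every La Quinta bull. Montealto 3 and 4 showed the reverse arrangement, with 1.5 and 1.58 FPKM of OAS1X beside 1.58 and 1.74 FPKM of OAS1Y and 1.49 and 1.77 FPKM of MX1, values near the lower end of Wagyu. Montealto 2 had 0.311 FPKM of OAS1X beside 1.81 FPKM of OAS1Y, 1.65 FPKM of MX1 and 3.75 FPKM of IFI27. Most of its summed level of 31.3 FPKM thus came from other genes of the list. Because the farms did not overlap in OAS1X and each holds 4 bulls, no correlation within Lidia is given for this gene. In the 8 Wagyu animals its correlation with each of the 9 genes ran from an r of -0.13 for IFI47 to 0.61 for GBP5, and 0 of these relations passed the adjustment over the 18 computed in both breeds (smallest adjusted p in Wagyu 0.673, exact permutation test).

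**Figure D3:**
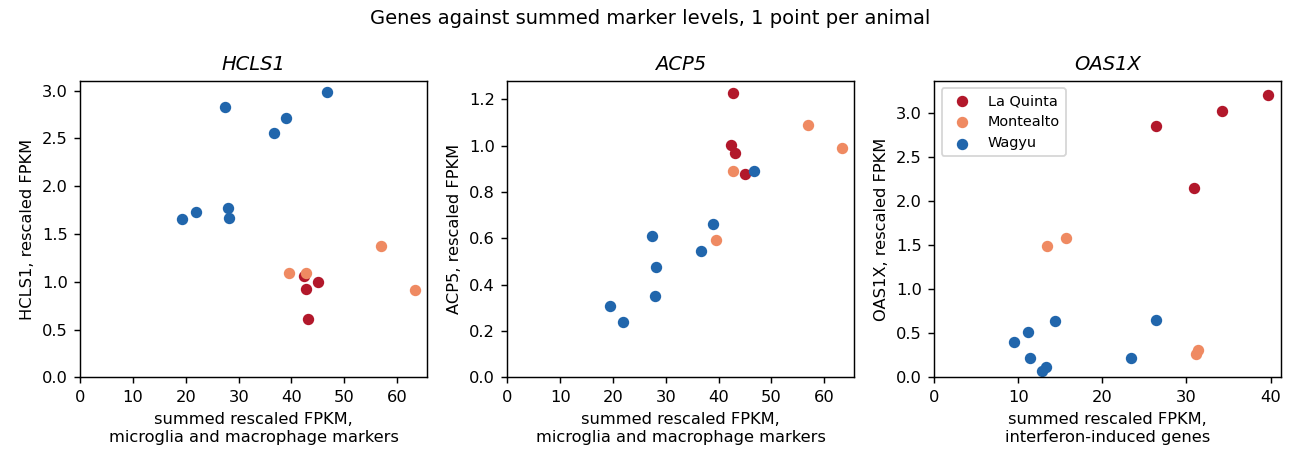
HCLS1 and ACP5 against the summed rescaled FPKM of 9 microglia and macrophage markers, and OAS1X against that of 9 interferon-induced genes (all axes in FPKM, linear), with 1 point per animal of La Quinta (n = 4), Montealto (n = 4) and Wagyu (n = 8). Lidia lies to the right of most Wagyu animals and below all of them in HCLS1 but above most of them in ACP5, and Montealto 1 and 2 have low OAS1X (0.270 and 0.311) at summed levels of 31.2 and 31.3. In Montealto 2 OAS1Y (1.81), MX1 (1.65) and IFI27 (3.75) lie below every La Quinta bull, and most of its sum comes from other genes of the list.

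Other genes of immune cells came from lists whose named members are also on the study's list, so that their direction between the breeds is fixed in part by that choice. Of 20 microglia and macrophage markers 9 have a symbol, and all 9 were higher on average in Lidia. Their sum was 39.6 to 63.5 FPKM in Lidia and 19.4 to 46.7 FPKM in Wagyu, and 0 of the 9 were at 0 in any animal. HCLS1 and ARHGAP25 were thus lower in the breed whose sum of these markers was higher, while ACP5 was higher in it, directions that the choice of genes fixes in part. Within a breed the r of HCLS1 with this sum was 0.79 in Wagyu and 0.19 in Lidia, and neither passed the adjustment. Whether this sum has a part in the difference of any of the 6 genes was not tested, and in bulk tissue fewer cells of a type and less RNA per cell cannot be told apart. Of 14 lymphocyte markers ZAP70, a kinase of the T cell receptor, is the single one with a symbol, at 0.255 to 0.768 FPKM in Lidia and 0.137 to 0.635 FPKM in Wagyu. Of 28 genes of leukocyte signalling 14 have a symbol, and 7 were lower and 7 higher in Lidia, with a median log2 difference of -0.02 against -0.01 over all genes. The 7 lower ones included CD14 (-0.67), a gene of monocytes and macrophages, and the kinase FGR (-0.81). The 7 higher ones included CXCR4 (0.81) and UNC93B1 (0.72). Genes of such cells outside the marker list thus went in both directions. Of 13 genes of adenosine handling 2 have a symbol, DPP4, a peptidase that binds adenosine deaminase at the cell surface, with a log2 difference of 1.42, and SLC29A3, a lysosomal nucleoside transporter, with -0.48.

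Between the farms 0 genes of these lists were called. Of the microglia and macrophage markers 2 of 9 had an unadjusted p under 0.05, beside 5.88% of all genes, with a median log2 difference of -0.18, and the widest gaps were TMEM119 (-1.39), AIF1 (-0.65), OLFML3 (0.30) and CD68 (-0.25). TMEM119, a surface protein of resident microglia, was very low, at 0.0631 to 0.126 FPKM in La Quinta and 0.150 to 0.844 FPKM in Montealto (limma adjusted p = 0.274). Of the leukocyte signalling genes 2 of 14 had an unadjusted p under 0.05, beside the same 5.88%, around a median of -0.17. The widest gaps there were the kinase FGR (-0.75), the cytokine receptor chain IL12RB1 (-0.72), the adaptor LAT2 (-0.37) and the phosphatase PTPN6 (-0.30). ZAP70 differed by 0.24, DPP4 by 0.53 and SLC29A3 by 0.06.

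Covariation within a breed was not used to choose the genes. Over the 15 pairs of genes in each breed, 0 of 30 relations passed the adjustment (exact permutation test of Pearson's r). In Wagyu 13 of 15 were positive with a median r of 0.23, and in Lidia 5 of 15 with a median r of -0.15. The closest pair was HCLS1 and ACP5 in the 8 Wagyu animals, with r = 0.87 and rho = 0.86 (exact permutation test, p = 0.00546 and 0.0107, adjusted p = 0.164 and 0.321). Without Wagyu 2 and Wagyu 4, the animals farthest from the median of HCLS1, r was 0.79, and without Wagyu 1 it was 0.95 and passed the adjustment (exact permutation test, adjusted p = 0.0476). HCLS1 and TOX in Wagyu followed with r = 0.77 and rho = 0.62 (exact permutation test, p = 0.0464 and 0.115, adjusted p = 0.561 and 0.811), and r was 0.56 without the same animals. As HCLS1 lay in an upper and a lower set of 4 Wagyu animals, each too small for an r of its own, whether these relations hold within the sets was not tested. In Lidia 0 of 15 pairs had an unadjusted p of at most 0.05, and a farm of 4 bulls is too small for a value of its own.

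The 6 genes were also related to the summed levels of 11 lists, 66 relations per breed, of which 0 of 132 passed the adjustment and 16 had an unadjusted p of at most 0.05 (3 of these 16 being OAS1X in Lidia, where no r is given). Of the other 13, 10 passed on the FPKM as deposited (adjusted p from 0.00327 to 0.0381), where the scale of each library enters both the gene and the sum. The highest r with sums of immune genes was that of ACP5. In Wagyu its r was 0.90 with leukocyte signalling and 0.88 with microglia and macrophage markers (rho = 0.90 and 0.83, exact permutation test, p = 0.0032 and 0.00476, adjusted p = 0.169 for both). These were 0.85 and 0.79 without the 2 animals farthest from the median of each sum. In Lidia ACP5 had r = 0.38 with the microglia and macrophage sum and r = 0.85 with ZAP70 (rho = 0.98, exact permutation test of r, p = 0.00218, adjusted p = 0.169), or 0.75 without La Quinta 3 and Montealto 1. With the interferon-induced sum the r of ACP5 was 0.76 in Lidia and 0.72 in Wagyu, and with the adenosine and astrocyte sums it was 0.72 and 0.74 in Wagyu (adjusted p = 0.357 for each, exact permutation test). These 3 values in Wagyu became 0.33, 0.30 and 0.50 without Wagyu 2 and 1 further animal each, and thus depend on those animals together. With 1 animal left out at a time the lowest r were 0.58, 0.55 and 0.53.

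HCLS1 had r = 0.87 with leukocyte signalling in Wagyu (rho = 0.83, exact permutation test, p = 0.0124, adjusted p = 0.273) and 0.82 without Wagyu 7 and Wagyu 8. With the microglia and macrophage sum its r was 0.79 (rho = 0.67, exact permutation test, p = 0.0324 and 0.0831, adjusted p = 0.357 and 0.577), and 0.64 without Wagyu 2 and Wagyu 8. Whether these relations hold within the upper and the lower set of Wagyu animals was not tested. In Lidia the r of HCLS1 with the same sums was 0.02 and 0.19, and the difference between the breeds was not tested. With the adenosine sum HCLS1 had r = 0.75 in Wagyu (rho = 0.81, exact permutation test, p = 0.0535 and 0.0218, adjusted p = 0.357 and 0.287) and 0.53 in Lidia. The r of ARHGAP25 with the 5 sums of immune genes lay between -0.46 and 0.19 in both breeds. It had r = 0.86 with the neuronal sum in Wagyu (rho = 0.69, exact permutation test, p = 0.00513, adjusted p = 0.169), 0.74 without Wagyu 1 and Wagyu 2, and r = 0.59 in Lidia, which was 0.07 without La Quinta 1 and Montealto 4. The 6 neuronal markers with a symbol, of 10 listed, summed to 215 to 328 FPKM in Lidia and 262 to 415 FPKM in Wagyu. They and ARHGAP25 are all on the study's list, so that their direction between the breeds is fixed in part by that choice. The part of these markers in the difference of ARHGAP25 was not tested.

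ADA in Lidia had r = 0.91 with the sum of the 6 endothelial and mural markers (rho = 0.86, exact permutation test, p = 0.00697, adjusted p = 0.184). Over the 16 animals CLDN5 alone made up 73.5% of this sum. Without Montealto 2 and Montealto 3, however, r was 0.18. These bulls had the highest and the lowest sum in Lidia, so that the relation rests on both ends of the range. With 1 animal left out at a time the lowest r was 0.73. Without La Quinta 4 r was 0.94 and passed the adjustment (exact permutation test, adjusted p = 0.0262). The relations of ADA with leukocyte signalling and with microglia and macrophage markers, with an r of 0.82 and 0.72, became 0.20 and 0.25 without Montealto 2. The endothelial and mural sum was 30.5 to 113 FPKM in Lidia and 16.0 to 36.6 FPKM in Wagyu. It holds 6 of 13 markers, all on the study's list, which fixes in part its direction between the breeds. The part of this sum in the breed difference of ADA was not tested. TOX had 0 relations at an unadjusted p of at most 0.05 with any of the 11 sums.

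**Figure D4:**
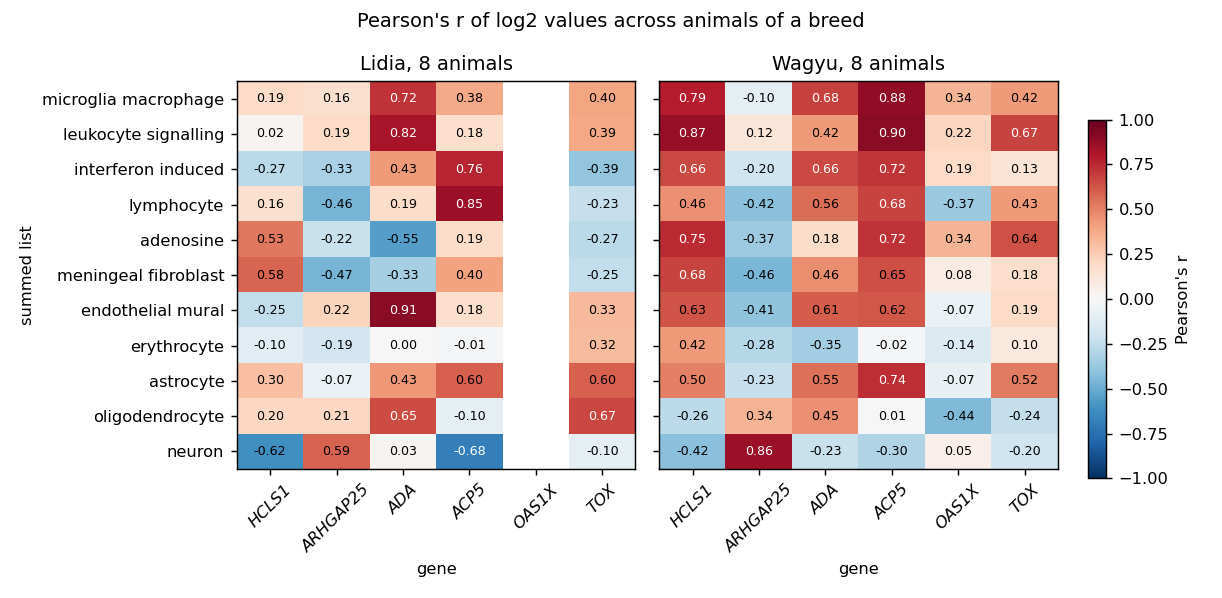
Pearson's r (colour, from -1 to 1, and printed in each cell) of the 6 genes with the log2 summed FPKM of 11 gene lists over the 8 Lidia and the 8 Wagyu animals; OAS1X is left blank in Lidia, where the farms do not overlap. In Wagyu the columns of HCLS1 and ACP5 are high against microglia and macrophage markers (0.79 and 0.88) and leukocyte signalling (0.87 and 0.90), and ARHGAP25 is high against neurons (0.86). The same columns are also high against other sums, such as adenosine (0.75 and 0.72), interferon-induced (0.66 and 0.72) and meningeal fibroblast (0.68 and 0.65).

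The remaining lists describe the other cells a cortical sample can hold. Their named members too are on the study's list, so that the direction of each sum between the breeds is fixed in part by that choice. Of 17 meningeal fibroblast markers 12 have a symbol, and their sum was 16.4 to 121 FPKM in Lidia and 6.80 to 34.2 FPKM in Wagyu. The astrocyte sum, over 4 of 7 markers, was 313 to 469 and 183 to 489 FPKM, respectively, and the oligodendrocyte sum, over 8 of 11, was 119 to 379 and 84.5 to 258 FPKM. HBB, the single one of 4 erythrocyte markers with a symbol, was 0.336 to 4.97 FPKM in Lidia and up to 1.86 FPKM in Wagyu, with 0 in Wagyu 1. With the meningeal and erythrocyte sums 0 of the 6 genes had a Pearson's r at an unadjusted p of at most 0.05 in either breed. HCLS1 in Wagyu had a rho of 0.81 with the meningeal sum (exact permutation test, p = 0.0218, adjusted p = 0.287).

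The genes most alike to each of the 6 were sought among 746 genes with a symbol and a mean of at least 1 FPKM, by Pearson's r of log2 values over the 16 animals after the mean of each breed was taken off. For HCLS1 they were the collagen receptor MRC2 (r = 0.79), the matricellular gene CCN1 (0.79) and the iron exporter SLC40A1 (0.77). For ARHGAP25 they were the orexin receptor HCRTR1 (0.83), the granin SCG2 (0.82) and the lactate dehydrogenase LDHA (0.80). ADA was nearest to the galectin LGALS9 (0.88), PHYHD1 (0.82) and the transcription factor NKX2-2 (0.80). ACP5 was nearest to PLD4 (0.85), one of the microglia and macrophage markers, the matrix protein TNC (0.84) and UNC93B1 (0.84), a chaperone of endosomal receptors for nucleic acids. For TOX they were PLEKHG5 (0.80), RASAL1 (0.72) and CTXN3 (0.66). For OAS1X they were GSTA3 (0.70), HSPH1 (0.68) and NOL10 (0.66), and there r includes the difference between the farms. These values are the highest of many and carry no test.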

How the data were processed

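PFC messenger RNA of 16 bulls was sequenced as stranded TruSeq libraries of paired reads, and the authors mapped it with STAR 2.7.3a to ARS-UCD 1.2 with the Ensembl annotation, handled alignments with SAMtools 0.1.18 and estimated transcripts with Cufflinks 2.2.1. The deposited values are the FPKM, its confidence limits and the coverage of 43984 transcripts per animal, with no scaling between animals and no read counts; the later Cuffdiff step of the authors is not part of them. The ratio of coverage to FPKM, taking a fragment as 200 bases, gave an estimate of 7.67 M to 37.0 M fragments per animal, which falls as FPKM rises. The limits apply to single transcripts before rescaling and were not used in the tests, where precision was judged by the scatter of the animals.

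Gene FPKM was summed over transcripts, rescaled by median of ratios over 15998 genes above 0 in all animals (normalized so that the factors have a geometric mean of 1), filtered at a mean of 0.1 FPKM and fitted by limma 3.58.1 (R 4.3.3) as log2(FPKM + 0.1) (variance trend, Benjamini-Hochberg adjustment), in 2 groups by breed or 3 by farm. Correlations used exact permutation of the 8 animals of a breed (Python 3.11.15, numpy 2.4.6, scipy 1.17.1, pandas 2.3.3). The scripts were tested on simulated data. The labels give the breed, and the farm of each Lidia bull came from the study's sample sheet by animal number. Animals are numbered in deposition order. Each library is 1 animal, so p-values measure the spread between animals. Symbols were taken from the study's gene sheet by identical position: 1048 of 1197 entries matched 1 gene with no further gene in the locus, and other genes have no name here.

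The 6 genes and all lists were chosen with earlier results of these data known. Beyond the 6 genes, those named are mainly up to 4 per immune list with the widest farm difference and the 3 most alike to each gene. CLDN5, CD14 and CXCR4 were named after their values were seen. The alternatives were FPKM as deposited, upper-quartile rescaling, pseudocounts of 1 and 0.01, a mean of at least 1 FPKM, no filter, no trend, array weights, Lidia alone, and leaving out animals.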

Additional observations from a re-analysis of the deposited data

Results flagged for a closer look

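Each of the 6 genes was examined for single animals far from the rest of their group, in Lidia, Wagyu and each farm (Dixon's test at the 95% level, 24 groups), and 2 were found, where chance alone gives about 5% of groups. In ADA, Montealto 2 had 3.06 FPKM among the 8 Lidia bulls, the next being La Quinta 1 at 1.93 FPKM. The same library had the highest endothelial and mural sum (113 FPKM), the highest oligodendrocyte sum (379 FPKM) and the lowest summed adenosine handling genes (0.805 FPKM), and the part of its composition in the ADA level was not tested. In ACP5, Montealto 4 had 0.592 FPKM among the 8 Lidia bulls, the next lowest being La Quinta 2 at 0.877 FPKM. Montealto 4 was the bull of 4 years, so that age and animal cannot be told apart.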

How the results depend on the processing

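All 6 genes kept their direction against Wagyu, pooled and by farm, under every alternative run. With a pseudocount of 1, which shrinks low genes by construction, HCLS1 was -0.68, ARHGAP25 -0.48, ADA 0.60, ACP5 0.38, OAS1X 0.97 and TOX 0.48 between the breeds; HCLS1 was -0.76, ACP5 0.43 and OAS1X 1.5 in La Quinta minus Wagyu, and OAS1X 0.44 in Montealto minus Wagyu. OAS1X kept its direction between the farms, at 1.06 to 2.21, and its adjusted p in limma (0.187 to 0.955) never passed. As deposited, the farm differences of HCLS1, ARHGAP25, ADA and TOX reversed to 0.022, 0.10, 0.21 and 0.13, below the median of all genes, 0.32. ADA was also 0.12 with array weights, 0.076 without Montealto 2 and -0.31 without Montealto 3. Genes called between the breeds, 826, came to 0 as deposited, 3086 with array weights and 206 without Wagyu 4 and La Quinta 4. Leaving out 1 animal gave 363 (Wagyu 8) to 1426 (Wagyu 2); Wagyu 4 to 7 gave 450, 409, 479 and 417, La Quinta 2 to 4 gave 448, 415 and 445, and Montealto 1 gave 416. Genes called between the farms, 15, came to 6 as deposited, 8 at a mean of at least 1 FPKM, 54 with array weights, 7 in Lidia alone and 8 without Wagyu 4 and La Quinta 4. Without 1 animal they were 6 (La Quinta 1) to 14, with 7, 9 and 7 for La Quinta 2 to 4. Pairs of the 6 genes past the threshold were 4 as deposited, and 0 to 1 without 1 animal, the 1 being HCLS1 with ACP5 without Wagyu 1. Of 13 relations with list sums 10 passed as deposited, and 1 (ADA with endothelial and mural markers) without La Quinta 4. For all these changes with no reason stated the cause was not tested. No paired analysis was possible because the animals of the breeds and farms share no pairing, their numbers being the order of deposition. Counts per gene were not used here, so limits of detection at low levels are unknown.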
